A study of Homo sapiens with 18 samples.

Results

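CCNE1, CCNE2, CDK2 and CDC25A, the genes for both E-type cyclins, the kinase they activate and a phosphatase that switches the kinase on, were read in 18 RNA sequencing libraries of RPE1 cells. They are 4 of the 57773 Ensembl genes in the deposited table and were taken from it by symbol. RPE1 (hTERT-RPE1) is an established human cell line from retinal pigment epithelium that was made immortal with telomerase. The cells grew in medium with 10% serum and were untreated, given cytochalasin D, which blocks actin assembly and so cell division after mitosis, or given ZM447439, an inhibitor of Aurora kinases. All were stained with the DNA dye Hoechst at 2 µg/mL for 60 min and sorted by flow cytometry for 2N or 4N DNA content. ZM447439 was used at 2.5 µM for 24 h. A single treatment text stands on every library, the untreated ones included, and it names neither dose nor time of the cytochalasin D exposure. Each of the 6 groups (untreated, cytochalasin D and ZM447439, each as 2N and 4N) had 3 libraries, which the series design calls biological replicates. All groups come from 1 line, and a 4N sort can hold diploid cells in G2 or mitosis as well as tetraploid cells in G1, which DNA content cannot tell apart.

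Cyclin E binds CDK2 in late G1, and the active pair phosphorylates the retinoblastoma protein and factors at replication origins, which carries the cell into S phase. CDC25A removes the inhibitory phosphate that WEE1 places on CDK2, and the inhibitors p21, p27 and p57 (CDKN1A, CDKN1B and CDKN1C) bind the complex and block it. CCNE1, CCNE2 and CDC25A are well known as targets of E2F factors, so that cyclin E–CDK2 activity feeds back on their transcription. Cyclin E RNA and protein normally peak around the G1/S transition, while the CDK2 level varies little through a cycle.

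Promoter sequences from RefSeq windows (GRCh38.p14) are shown here for CCNE1 and CDC25A, 2 of the 4 genes. They set a cyclin E promoter beside that of CDC25A. Both genes are known E2F targets, but their RNA levels differed between the sorts in unlike ways. CDK2 had no window in the set used. The chromosome of CCNE2 was left out of the search, so the CCNE2 promoter was not examined. Each window is the 250 bases before the annotated start, written 5′ to 3′ on the gene's strand: chr19:29811741-29811990, plus strand, for CCNE1 and chr3:48188418-48188667, minus strand, for CDC25A. Capitals mark E2F words and CCAAT words, the latter read here as ATTGG because they lie on the other strand.
CCNE1: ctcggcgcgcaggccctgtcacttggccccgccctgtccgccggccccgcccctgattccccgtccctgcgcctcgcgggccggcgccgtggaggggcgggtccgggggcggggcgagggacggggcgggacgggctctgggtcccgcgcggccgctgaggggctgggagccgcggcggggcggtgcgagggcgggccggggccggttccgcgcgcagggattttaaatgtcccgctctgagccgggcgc
CDC25A: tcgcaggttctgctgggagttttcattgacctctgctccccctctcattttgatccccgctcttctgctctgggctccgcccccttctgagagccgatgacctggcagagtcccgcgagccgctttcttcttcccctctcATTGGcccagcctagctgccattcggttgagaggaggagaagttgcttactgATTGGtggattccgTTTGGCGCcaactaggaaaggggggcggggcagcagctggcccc

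Both strands were searched for 4 E2F words (TTTCCCGC or TTTCGCGC or TTTGCCGC or TTTGGCGC), for the cell-cycle word TTTGAA, for CCAAT and for the GC box GGGCGG. The CDC25A window held 1 E2F word, TTTGGCGC, at 44 to 37 bases before the start. It also held 2 CCAAT words, at 110 to 106 and 58 to 54 bases before the start, and 2 GC boxes, and none of these matches overlapped another. In the CCNE1 window 7 GC boxes were found and none of the other words. Among all 35116 windows of this length, 2.8% held an E2F word, 13.3% TTTGAA, 32.0% CCAAT and 42.6% a GC box. The GC content was 81.2% for CCNE1 and 60.0% for CDC25A, against a median of 58.0% over all windows. A match is a description of letters, and its absence says only that those letters are not in the window.

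Levels are the deposited RPKM, reads scaled by gene length and by library size. The length behind these values was recovered from their steps: for the 4 genes every value in every library was a whole number of reads within 0.0200 reads when multiplied by the genomic span, introns included. Spans were 12411 bases for CCNE1, 16909 for CCNE2, 6016 for CDK2 and 31257 for CDC25A. The reads per library ranged from 95 to 887 (median 178) for CCNE1, from 163 to 3051 (median 545) for CCNE2, from 415 to 5697 (median 1284) for CDK2 and from 158 to 2508 (median 501) for CDC25A. The same change in RNA therefore rested on fewest reads for CCNE1. Division by the whole span put the means of CCNE1 and CDC25A (0.371 and 0.462 RPKM) below the filter of 0.5 RPKM used for tests, so that 2 of the 4 genes, CCNE2 and CDK2, passed it. All 4 were tested on RPM (reads scaled by library size alone), where 20106 genes passed a filter of 0.5 RPM. Changes are differences on the log2(RPKM + 0.5) scale for CCNE2 and CDK2, over 13037 genes, and on the log2(RPM + 0.5) scale for CCNE1 and CDC25A, from limma, with the standard error (SE) and the Benjamini-Hochberg (BH) adjusted p. Both scales understate changes of low levels.

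Implied library sizes were 51135434 to 78294193 reads. In each of the 6 groups 1 library lay further from the other 2 than these lay from each other (median absolute log2 difference over tested genes 0.082 to 0.15 against 0.043 to 0.063): the one numbered 3 in both untreated groups and the one numbered 1 in all 4 drug groups. For the 4 genes, results whose call changed without these 6 libraries are given with and without them. KRT18 and VIM, filament genes of this line, had medians of 67.8 and 581 RPKM, and BEST1, a gene of pigment epithelium, 87.9 RPKM. RPE65 and TYR, further genes of pigment epithelium, were at most 0.0356 and 0.00275 RPKM. RLBP1 and MITF, also genes of pigment epithelium, had medians of 0.0204 and 0.150 RPKM. Whether reads of overlapping genes add to the BEST1 value was not examined. The blood cell markers CD3E and HBB were at 0 in 15 and 17 libraries, and PTPRC reached at most 0.00525 RPKM, while LYZ was at 0.143 to 0.249 RPKM in all 18. In bulk RNA, fewer cells with a transcript and less transcript per cell cannot be told apart.

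CCNE1, the first of the E-type cyclins, was highest in untreated 2N cells and 4.32-fold lower in untreated 4N cells. Untreated 2N cells had 0.908, 0.936 and 1.16 RPKM in libraries 1, 2 and 3, and untreated 4N cells had 0.277, 0.244 and 0.173. With cytochalasin D the values were 0.171, 0.116 and 0.165 in 2N cells and 0.142, 0.151 and 0.148 in 4N cells. With ZM447439 they were 0.458, 0.422 and 0.440 in 2N cells and 0.267, 0.253 and 0.240 in 4N cells. The 2N and 4N libraries did not overlap without drug or with ZM447439, while the 4N values with cytochalasin D lay inside the 2N range. In the order of group means, untreated 2N (1.00 ± 0.138, SD, n = 3) was followed by ZM447439 2N (0.440 ± 0.0180), then ZM447439 4N (0.253 ± 0.0132) and untreated 4N (0.232 ± 0.0531), whose ranges overlapped. Cytochalasin D 2N (0.151 ± 0.0305) and 4N (0.147 ± 0.00438) came last, and their ranges also overlapped.

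CCNE2, the other E-type cyclin, had the same first and last groups and reached 14.4-fold between its highest and lowest library. Untreated cells had 2.30, 2.42 and 2.65 RPKM in 2N libraries 1, 2 and 3 and 0.702, 0.722 and 0.437 in 4N libraries. With cytochalasin D the values were 0.225, 0.226 and 0.221 in 2N cells and 0.195, 0.184 and 0.186 in 4N cells. With ZM447439 they were 0.893, 0.894 and 0.854 in 2N cells and 0.534, 0.571 and 0.539 in 4N cells. Every 4N library was below every 2N library of its treatment, by 3.96-fold in the means without drug, 1.61-fold with ZM447439 and 1.19-fold with cytochalasin D. The cytochalasin D difference did not pass in limma (-0.07 on the log2 RPKM scale, BH-adjusted p = 0.996). How many of all genes separate their sorts in this way was not counted, here or for the other 3 genes. Untreated 4N library 3 was the lowest of its group for both cyclins and was 1 of the 6 that stood apart. The group means fell from 2.46 ± 0.174 (SD, n = 3) in untreated 2N cells to 0.880 ± 0.0234 with ZM447439 in 2N cells. Untreated 4N (0.621 ± 0.159) and ZM447439 4N (0.548 ± 0.0199) came next with overlapping ranges, above cytochalasin D 2N (0.224 ± 0.00283) and 4N (0.188 ± 0.00595), whose ranges did not overlap.

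CDK2, the catalytic subunit, did not share this difference between the sorts. Untreated cells had 12.1, 11.9 and 10.6 RPKM in 2N libraries 1, 2 and 3 and 14.4, 14.7 and 13.2 in 4N libraries. With cytochalasin D the values were 2.03, 1.55 and 1.33 in 2N cells and 1.92, 1.31 and 1.56 in 4N cells. With ZM447439 they were 5.26, 3.60 and 3.37 in 2N cells and 4.48, 3.42 and 3.19 in 4N cells. All untreated 4N libraries lay above all untreated 2N libraries, with means of 14.1 ± 0.803 and 11.5 ± 0.804 (SD, n = 3), and under each drug the sorts overlapped. In all 4 drug groups library 1, the one that stood apart, had the highest CDK2 value. The order was untreated 4N, untreated 2N, ZM447439 2N (4.08 ± 1.03) with 4N (3.70 ± 0.693), and cytochalasin D 2N (1.63 ± 0.357) with 4N (1.60 ± 0.304), and only neighbours that share a drug overlapped.

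CDC25A, the phosphatase, separated the treatments as CDK2 did and the sorts only slightly. Untreated cells had 1.02, 1.09 and 1.16 RPKM in 2N libraries 1, 2 and 3 and 0.942, 0.918 and 0.819 in 4N libraries. With cytochalasin D the values were 0.0935, 0.110 and 0.124 in 2N cells and 0.0993, 0.0964 and 0.0946 in 4N cells. With ZM447439 they were 0.318, 0.334 and 0.300 in 2N cells and 0.243, 0.279 and 0.273 in 4N cells. The sorts did not overlap without drug or with ZM447439 and did overlap with cytochalasin D. Group means were 1.09 ± 0.0669 and 0.893 ± 0.0647 (SD, n = 3) in untreated 2N and 4N cells, 0.317 ± 0.0172 and 0.265 ± 0.0192 with ZM447439, and 0.109 ± 0.0151 and 0.0967 ± 0.00236 with cytochalasin D.

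**Figure D1:**
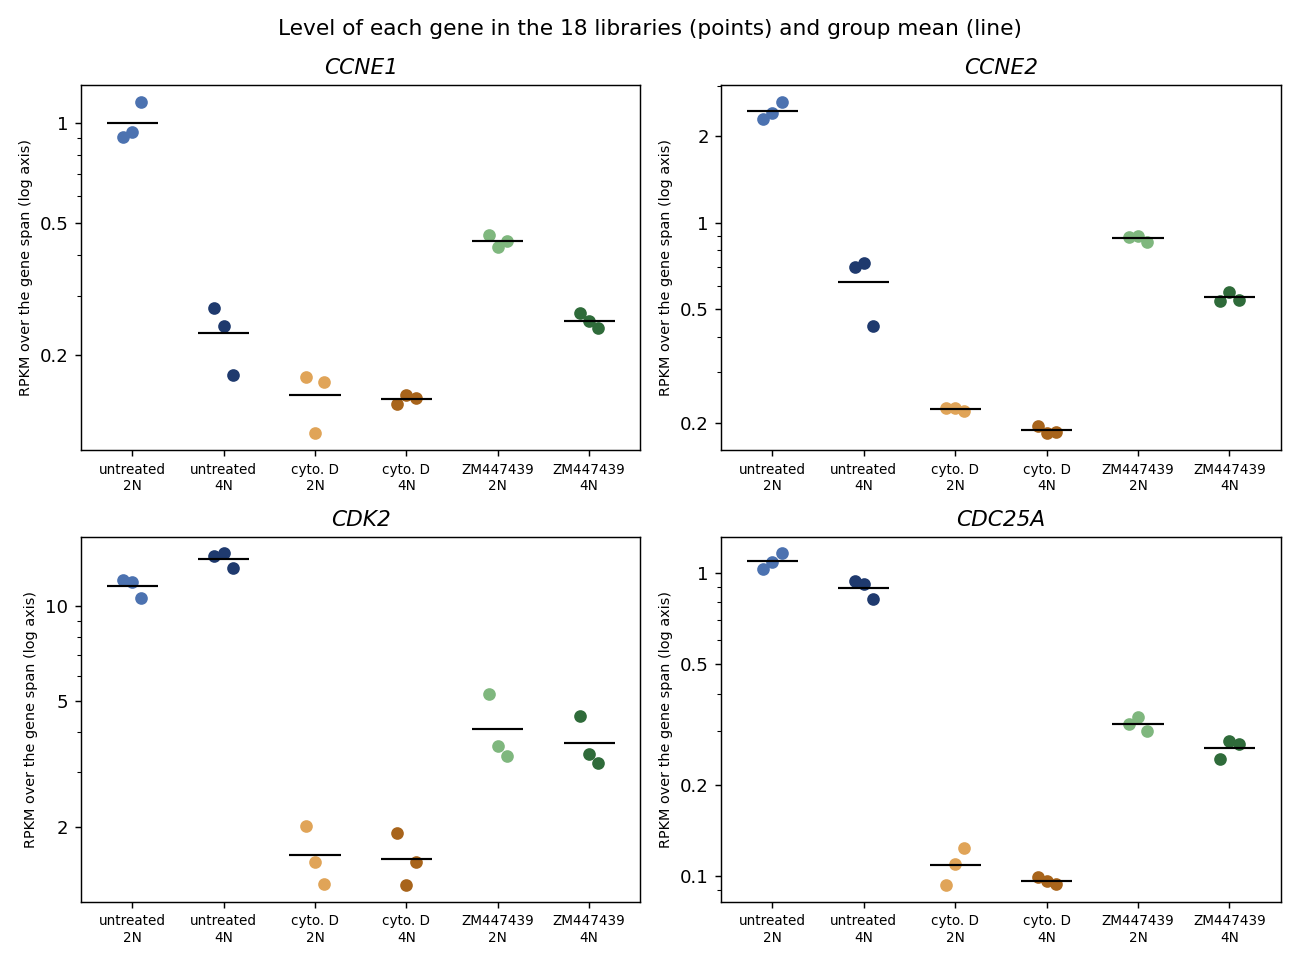
Level of CCNE1, CCNE2, CDK2 and CDC25A in RPKM over the gene span (log axis) in the 6 groups; points are libraries 1 to 3 from left to right and lines are group means. For CCNE1 and CCNE2 untreated 2N cells stood alone at the top (means 1.00 and 2.46 RPKM), whereas for CDK2 and CDC25A both untreated sorts lay above all drug groups.

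The CDK2 and CCNE2 values have to be read with their neighbours in view, because the kit did not mark strand. In GENCODE 29 the whole CDK2 span (100%) lies inside that of PMEL, a melanosome gene on the opposite strand. PMEL had 21 to 76 more reads than CDK2 in each of the 18 libraries, or 1.00 to 1.12 times as many, so that the 2 genes held nearly the same number of reads. Reads of these 2 genes cannot be told apart in the table. The CDK2 span makes up 31.3% of the PMEL span, so the rest of PMEL added at most those 76 reads to a library if each read in CDK2 was counted for both genes. A further gene, ENSG00000258554, lies inside CDK2 on the other strand and had 0.117 to 0.174 times its reads.

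CCNE2 shares 1977 bases (11.7% of its span) with INTS8, a subunit of the Integrator complex, and 912 bases (5.39%) with NDUFAF6, an assembly factor of respiratory complex I, both on the opposite strand. INTS8 had 1145 to 4134 reads per library, 1.23 to 7.48 times those of CCNE2, and its means were 0.794 and 0.582 RPKM in untreated 2N and 4N cells. NDUFAF6 had 1652 to 7199 reads. How many reads lay in the shared bases was not tested. CDC25A holds 3 small genes within its span (NDUFB1P1, SNRPFP4 and RNU7-128P), and no annotated gene overlapped CCNE1.

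**Figure D2:**
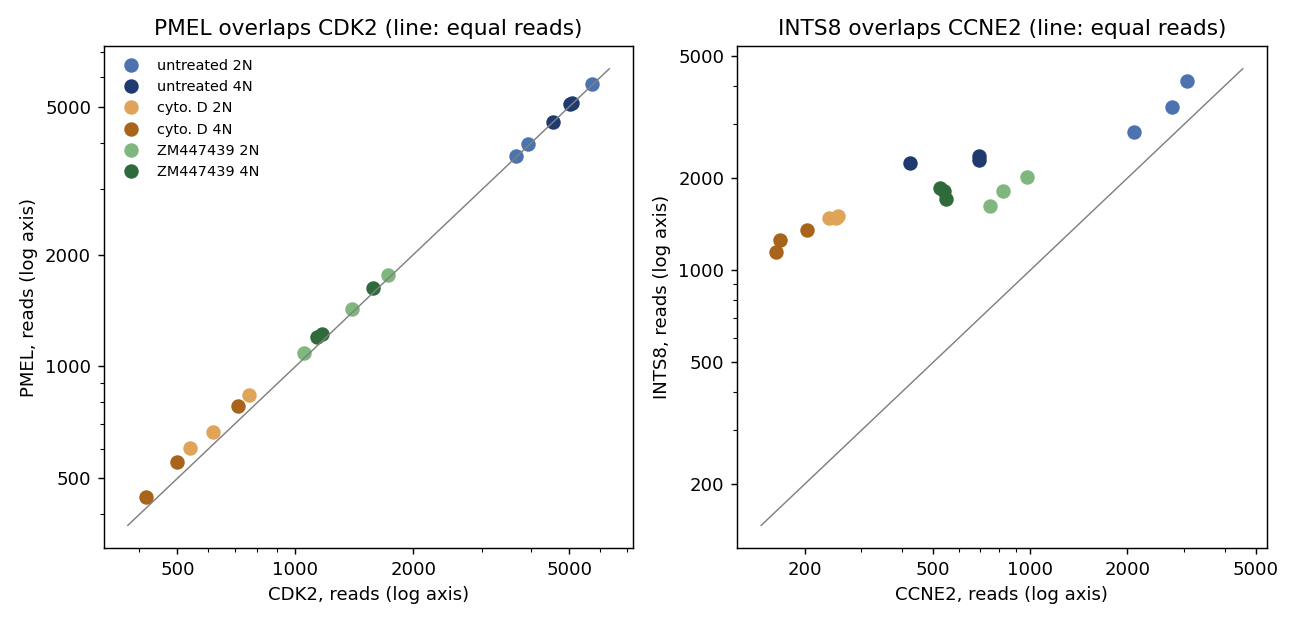
Reads of PMEL against CDK2 (left) and of INTS8 against CCNE2 (right) in the 18 libraries, log axes, with the line of equal reads. PMEL lay on or just above the line in all 18 libraries, by 21 to 76 reads, while INTS8 exceeded CCNE2 by 644 to 1810 reads.

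The first comparison asked how 4N cells differed from 2N cells when no drug was given. Both cyclins fell: CCNE1 by 1.95 on the log2 RPM scale (SE 0.14, limma BH-adjusted p = 2.92e-07) and CCNE2 by 1.41 on the log2 RPKM scale (SE 0.08, limma BH-adjusted p = 4.03e-08). On the RPM scale, which allows the 2 cyclins to be set side by side, CCNE2 fell by 1.96 (SE 0.13). CDC25A fell by 0.28 (SE 0.09, limma BH-adjusted p = 0.0313), a much smaller change. That call was lost in limma without the filter (BH-adjusted p = 0.054), without the 6 libraries that stood apart (-0.18, adjusted p = 0.0617) and without each of 4 single libraries: untreated 2N library 2 (-0.29, BH-adjusted p = 0.0748), 2N library 3 (-0.24, adjusted p = 0.125), 4N library 2 (-0.30, adjusted p = 0.0567) and 4N library 3 (-0.22, adjusted p = 0.134). CDK2 was 0.28 higher in 4N cells (95% confidence interval -0.07 to 0.62) and did not pass (limma BH-adjusted p = 0.287). With the replicate number as a block, which treats the sorts as paired by that number, the same difference passed (limma BH-adjusted p = 0.0136). The CDK2 difference also passed with untreated libraries alone (limma BH-adjusted p = 0.0375) and without the 6 libraries that stood apart (0.27, adjusted p = 0.0271). In all, 3 of the 4 genes were lower on the RPM scale, where 6.68% of all genes tested were lower. All genes called numbered 4097 on that scale, and 6642 with the block.

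After cytochalasin D no difference between the sorts passed for any of the 4 genes. CCNE1 differed by -0.02 (95% confidence interval -0.31 to 0.28), CDC25A by -0.14 (-0.33 to 0.04), CCNE2 by -0.22 (-0.49 to 0.05) and CDK2 by -0.03 (-0.41 to 0.35), all on the RPM scale and all with a limma BH-adjusted p of 0.997. On the RPM scale 0.00497% of the genes tested passed here in either direction, which is 1 gene (2121 genes passed without the 6 libraries that stood apart), with 1061 at an unadjusted p under 0.05, and 126 with the replicate block. Without the 6 libraries that stood apart, CDC25A passed as lower in 4N cells (-0.25, limma BH-adjusted p = 0.0352). The intervals leave room for changes of modest size, but for CCNE1 and CCNE2 not for one as large as in untreated cells.

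After ZM447439 the cyclins again fell from 2N to 4N cells, CCNE1 by 0.71 on the RPM scale (SE 0.14, limma BH-adjusted p = 0.00801) and CCNE2 by 0.40 on the RPKM scale (SE 0.08, limma BH-adjusted p = 0.00806). Neither call held in limma with ZM447439 libraries alone (BH-adjusted p = 0.115 and 0.0947), a fit in which 1 gene passed on the RPM scale (3523 at an unadjusted p under 0.05) and 0 on the RPKM scale (2162). CDC25A differed by -0.25 (95% confidence interval -0.44 to -0.06) and missed the threshold (limma BH-adjusted p = 0.0928), passing without the 6 libraries that stood apart (-0.19, adjusted p = 0.0441). CDK2 differed by -0.12 on the RPKM scale (limma BH-adjusted p = 0.714). So 2 of the 4 genes were lower on the RPM scale, against 2.71% of all genes tested. With the block 4381 genes were called in place of 1534.

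The interaction asks whether the 4N to 2N difference itself differed between a drug and no drug. For both cyclins it did. CCNE1 had an interaction of 1.93 for cytochalasin D (SE 0.20, limma BH-adjusted p = 6.1e-05) and of 1.24 for ZM447439 (SE 0.20, adjusted p = 0.0012) on the RPM scale. CCNE2 had 1.34 (SE 0.11, limma BH-adjusted p = 1.03e-05) and 1.01 (SE 0.11, adjusted p = 9.02e-05) on the RPKM scale. Positive values mean that 4N cells lay less far below 2N cells under the drug. For CDC25A the interactions were 0.14 (SE 0.12, limma BH-adjusted p = 0.572) and 0.04 (SE 0.12, adjusted p = 0.89), and for CDK2 -0.30 (SE 0.23, adjusted p = 0.535) and -0.39 (SE 0.23, adjusted p = 0.306). The CDK2 value for ZM447439 passed with the replicate block (limma BH-adjusted p = 0.0198) and without the 6 libraries that stood apart (-0.34, adjusted p = 0.0348). On the RPM scale 2 of the 4 genes, the cyclins, were higher in each interaction, where 2.42% (cytochalasin D) and 4.27% (ZM447439) of all genes tested were. The block raised the genes called from 1662 to 4015 and from 2261 to 5153.

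Each drug was then compared with no drug within a sort; these comparisons share their untreated libraries, so they are not independent of each other or of the interactions. In 2N cells all 4 genes fell with both drugs. With cytochalasin D the log2 changes were -2.45 for CCNE1 (limma BH-adjusted p = 5.18e-10), -2.03 for CCNE2 (adjusted p = 4.29e-11), -2.51 for CDK2 (adjusted p = 6.22e-09) and -3.15 for CDC25A (adjusted p = 4.77e-13), which as ratios of means were 6.65, 11.0, 7.05 and 10.0-fold. With ZM447439 they were -1.11 for CCNE1 (limma BH-adjusted p = 6.38e-06), -1.10 for CCNE2 (adjusted p = 4.81e-08), -1.41 for CDK2 (adjusted p = 4.27e-06) and -1.73 for CDC25A (adjusted p = 2.01e-09), or 2.28, 2.79, 2.83 and 3.43-fold. These changes are on the RPM scale for CCNE1 and CDC25A and on the RPKM scale for CCNE2 and CDK2, so their sizes are not directly comparable. On the RPM scale CCNE2 changed by -3.29 with cytochalasin D and -1.45 with ZM447439, and CDK2 by -2.78 and -1.51. On that scale 35.5% of all genes were lower with cytochalasin D and 29.6% with ZM447439 in 2N cells, so a fall by itself was common among all genes here.

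In 4N cells the 4 genes parted. CDK2 fell by 2.81 with cytochalasin D (SE 0.16, limma BH-adjusted p = 1.26e-09) and fell by 1.81 with ZM447439 (adjusted p = 3.73e-07), and CDC25A fell by 3.01 (SE 0.09, limma BH-adjusted p = 8.44e-13) and fell by 1.69 (adjusted p = 1.48e-09). These were 8.83 and 3.81-fold for CDK2 and 9.23 and 3.37-fold for CDC25A. The cyclins, already low in untreated 4N cells, fell less. With cytochalasin D CCNE1 fell by 0.52 (SE 0.14, limma BH-adjusted p = 0.00318) and CCNE2 by 0.69 (SE 0.08, adjusted p = 1.21e-06), or 1.58 and 3.30-fold. On the RPM scale, used for CCNE1 and CDC25A, the changes with cytochalasin D were -1.55 for CCNE2 and -3.09 for CDK2. With ZM447439 CCNE1 differed by 0.13 (95% confidence interval -0.17 to 0.42, limma BH-adjusted p = 0.447) and CCNE2 by -0.09 (-0.25 to 0.08, adjusted p = 0.355). Untreated 4N library 3 mattered for CCNE2, which passed as lower with ZM447439 once that library was left out (-0.21, limma BH-adjusted p = 0.00106) and without all 6 that stood apart (-0.20, adjusted p = 0.000585). On the RPM scale 4 of 4 genes were lower with cytochalasin D and 2 of 4 with ZM447439, against 40.0% and 32.4% of all genes tested.

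Between the drugs, all 4 genes were lower with cytochalasin D than with ZM447439 in both sorts. The log2 RPM differences in 4N cells were -0.65 for CCNE1 (limma BH-adjusted p = 0.00146), -1.41 for CCNE2 (adjusted p = 8.54e-07), -1.17 for CDK2 (adjusted p = 9.76e-05) and -1.31 for CDC25A (adjusted p = 4.39e-08). In 2N cells they were -1.34 for CCNE1 (limma BH-adjusted p = 4e-06), -1.84 for CCNE2 (adjusted p = 1.02e-07), -1.27 for CDK2 (adjusted p = 6.72e-05) and -1.42 for CDC25A (adjusted p = 3.64e-08). Of all genes tested on that scale 25.1% were lower in 4N cells and 21.0% in 2N cells. On the RPKM scale CCNE2 and CDK2 were called lower too, where the shares of all genes were 27.8% and 23.2%. Dose and time of cytochalasin D are not given, so the drugs may not have been compared at matched exposure.

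**Figure D3:**
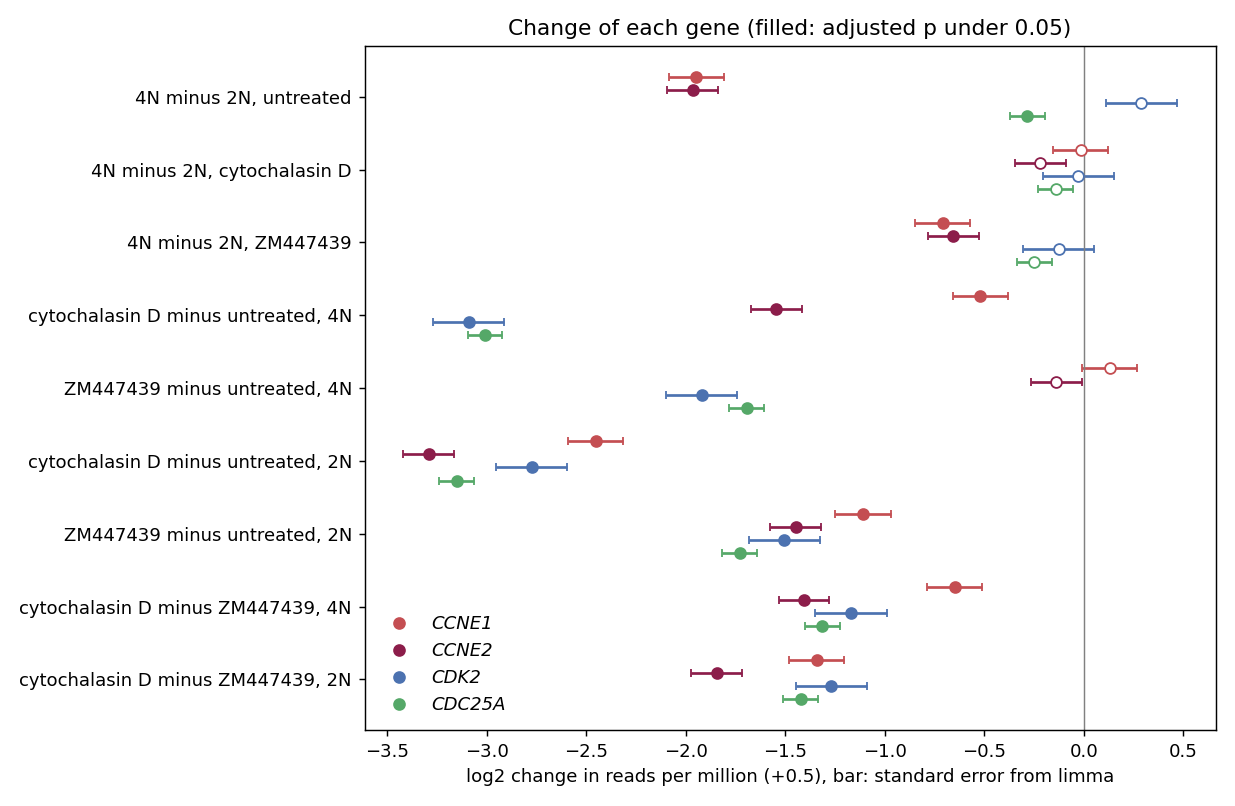
Log2 change in RPM (+0.5) of CCNE1, CCNE2, CDK2 and CDC25A in the 9 pairwise comparisons, with SE from limma as bars and filled points where the BH-adjusted p was under 0.05. The cyclins lay near -1.95 between the untreated sorts, where CDK2 and CDC25A lay at 0.29 and -0.28. With either drug in 4N cells CCNE1 and CCNE2 lay closer to 0 than CDK2 and CDC25A.

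Plotted against CDC25A, the cyclins left a common path in untreated 4N cells. CDC25A averaged 34.1 and 27.9 RPM in untreated 2N and 4N cells, while CCNE1 went from 12.4 to 2.87 RPM and CCNE2 from 41.5 to 10.5 RPM. ZM447439 2N cells, with 9.92 RPM of CDC25A, held more CCNE1 (5.46 RPM) and CCNE2 (14.9 RPM) than untreated 4N cells did. Per kilobase of exon, the ratio of CCNE2 to CDC25A within a library was 1.14 ± 0.0151 (SD, n = 3) in untreated 2N cells, 0.349 ± 0.0688 in untreated 4N cells and between 0.985 and 1.41 in the means of the 4 drug groups. Every drug library lay above every untreated 4N library in this ratio.

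**Figure D4:**
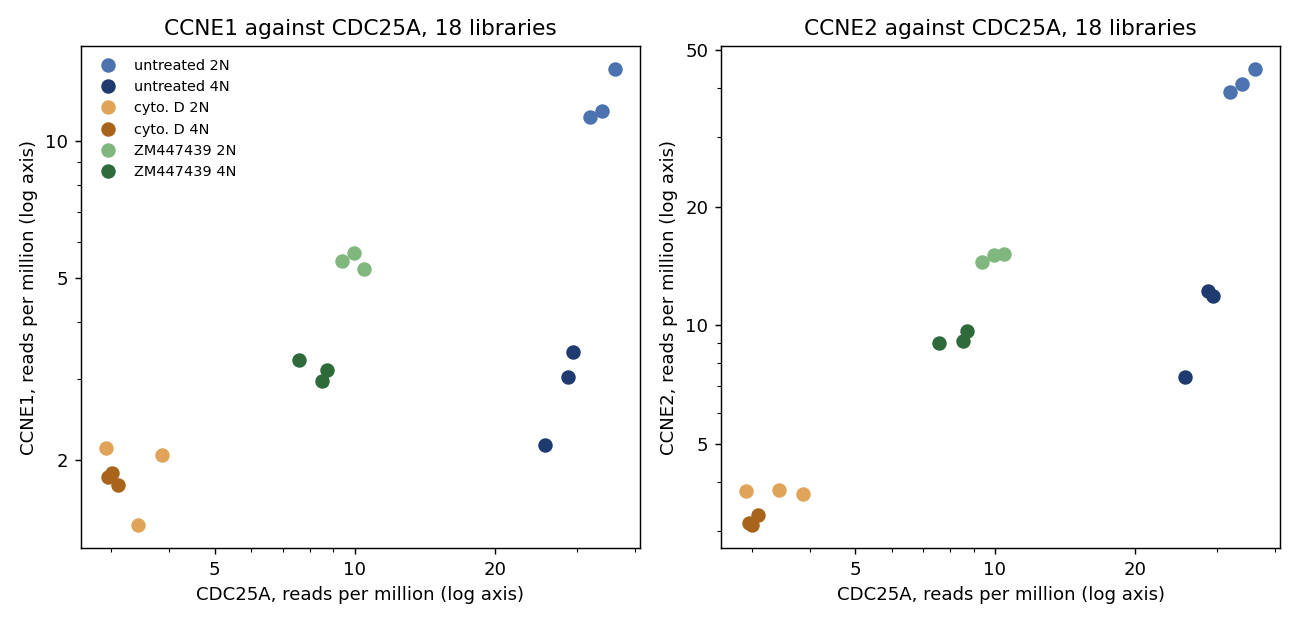
CCNE1 (left) and CCNE2 (right) against CDC25A in the 18 libraries, all in RPM on log axes. The 3 untreated 4N libraries lay far below the untreated 2N libraries in cyclin (mean CCNE2 10.5 against 41.5 RPM) with mean CDC25A at 27.9 against 34.1 RPM.

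The balance of subunits was also set per kilobase of exon, a rough scale for setting different genes side by side. Reads from introns may be included, and their share in each gene was not tested. The sum of both cyclins was 0.810 ± 0.136 (SD, n = 3) times CDK2 in untreated 2N cells and 0.160 ± 0.0315 times in untreated 4N cells. Under cytochalasin D it was 0.649 ± 0.139 in 2N and 0.597 ± 0.111 in 4N cells, and under ZM447439 0.908 ± 0.185 and 0.597 ± 0.0982. Untreated 4N cells therefore had the lowest cyclin E RNA per CDK2 RNA, with no overlap with another group, while the CDK2 value may include PMEL reads. CCNE2 exceeded CCNE1 1.95-fold ± 0.129 and 2.11-fold ± 0.193 in untreated 2N and 4N cells and 1.58-fold ± 0.0800 and 1.71-fold ± 0.112 with ZM447439. With cytochalasin D the ratio was 1.21 ± 0.288 in 2N and 1.01 ± 0.0630 in 4N cells.

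Across the 18 libraries CCNE1 and CCNE2 followed each other (Pearson r = 0.977 on the log2 RPKM + 0.5 scale), and CDK2 followed CDC25A (r = 0.963). Between the pairs r was lower, 0.600 for CCNE1 with CDK2 and 0.719 with CDC25A, 0.730 for CCNE2 with CDK2 and 0.822 with CDC25A. These are descriptions over libraries that share 6 groups, so the points are not independent. The tested genes most like CCNE1 were CCNE2, UNG (r = 0.974), which removes uracil from DNA, ENSG00000272509 (0.957), FAM111B (0.914) and TMEM200B (0.913). UNG had 5.35 ± 0.360 RPKM (SD, n = 3) in untreated 2N and 1.25 ± 0.283 in untreated 4N cells. Those most like CCNE2 were ENSG00000272509 (0.986), which lies within its span on the other strand, FAM111B (0.970), SLBP (0.963), the binding protein of histone mRNA stem-loops, ENSG00000266466 (0.947) and UNG (0.942). SLBP went from 5.17 ± 0.165 to 3.03 ± 0.280 RPKM between the untreated sorts.

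Many genes followed CDK2 and CDC25A, and few followed the cyclins. Over 0.95 in r stood 962 genes with CDK2 and 588 with CDC25A, but 3 with CCNE1 and 3 with CCNE2. Nearest to CDK2 were PMEL (0.998) and ENSG00000258554 (0.995), both of which overlap it, AMD1 (0.997), an enzyme of polyamine synthesis, NCBP1 (0.995), a cap-binding protein, and TCF19 (0.993). For CDC25A they were ZNF367 (0.997), TONSL (0.996), which acts in repair at replication forks, C19orf48P (0.994), TONSL-AS1 (0.993), an antisense gene of TONSL that cannot be told apart from it without strand, and CHAF1A (0.992), a subunit of chromatin assembly factor 1. Taken over 6 group means in place of 18 libraries, the 5 nearest genes shared with these were 0 for CCNE1, 1 for CCNE2, 2 for CDK2 and 1 for CDC25A.

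The direct regulators of the kinase came next, a list of 22 genes of which 16 passed the RPKM filter. Without drug 8 were higher and 0 lower in 4N than in 2N cells (median log2 change 0.30 against 0.04 over all genes, of which 12.9% were higher and 4.55% lower). CDK1, the mitotic kinase that cyclin E can also bind, rose by 2.36 (limma BH-adjusted p = 1.44e-05), from 2.33 ± 0.657 to 13.8 ± 0.906 RPKM (SD, n = 3). CDC25B, a related phosphatase that acts mainly at mitotic entry, rose by 1.68 (limma BH-adjusted p = 1.64e-06), and CCNA2, the cyclin that follows cyclin E on CDK2, by 1.59 (adjusted p = 8.15e-05). CCNA2 thus went from 11.7 ± 2.34 to 35.8 ± 2.95 RPKM where both E cyclins fell. With ZM447439 3 of 16 were higher and 0 lower in 4N cells (5.21% and 2.45% of all genes): CCNA2 by 1.06, CKS1B, an adaptor of CDKs, by 0.75 and CDC25B by 0.74. With cytochalasin D 0 of 16 passed, as 0.0% of all genes did in either direction, 682 of them at an unadjusted limma p under 0.05. Without the 6 libraries that stood apart the counts of higher and lower regulators were 10 and 0 without drug, 7 and 0 with ZM447439 and 5 and 0 with cytochalasin D. In that fit 22.0% of all genes were higher and 8.05% lower without drug, 20.5% and 19.8% with ZM447439 and 3.65% and 3.57% with cytochalasin D.

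With each drug more of these regulators fell than rose, and each of the CDK inhibitor genes CDKN1A, CDKN1B and CDKN1C passed as higher in some of the drug comparisons. In 4N cells 2 of the 16 regulators were higher and 12 lower with cytochalasin D (26.1% and 44.4% of all genes), and 3 higher and 12 lower with ZM447439 (19.6% and 35.5%), with medians of -0.70 and -0.45 against -0.13 and -0.07 over all genes. In 2N cells the counts were 3 and 10 with cytochalasin D (27.1% and 39.5% of all genes) and 2 and 10 with ZM447439 (23.6% and 32.5%). CDKN1A, which encodes p21, rose in 4N cells by 1.79 with cytochalasin D (SE 0.54, limma BH-adjusted p = 0.00884) and by 1.98 with ZM447439 (adjusted p = 0.00664). Its levels were 18.9 ± 6.49 RPKM (SD, n = 3) without drug, 68.2 ± 33.0 with cytochalasin D and 78.1 ± 38.6 with ZM447439. Library 1 was the highest with each drug: 106 RPKM against 49.0 and 49.4 with cytochalasin D, and 123 against 56.8 and 54.9 with ZM447439. CDKN1A rose without the 6 libraries that stood apart by 1.10 with cytochalasin D (limma BH-adjusted p = 2.59e-08) and by 1.28 with ZM447439 (adjusted p = 3.59e-08). In 2N cells it rose by 1.65 with cytochalasin D (limma BH-adjusted p = 0.0151), or 1.04 without the 6. With ZM447439 CDKN1A did not pass in 2N cells (0.97, limma BH-adjusted p = 0.148), and the change without the 6 was 0.03 (adjusted p = 0.438). Library 1 of that group had 77.7 RPKM against 18.3 and 18.7. CDKN1C, for p57, rose by 1.66 (limma BH-adjusted p = 7.01e-06) and 0.62 (adjusted p = 0.0243) in 4N cells, from a low 0.174 ± 0.0400 RPKM. In 2N cells CDKN1C rose by 1.39 with cytochalasin D (limma BH-adjusted p = 4.85e-05) and did not pass with ZM447439 (0.42, adjusted p = 0.111), where it passed without the 6 libraries (0.63, adjusted p = 0.000294). CDKN1B, for p27, rose in 2N cells by 0.38 with cytochalasin D (limma BH-adjusted p = 0.0128) and by 0.40 with ZM447439 (adjusted p = 0.0124), and did not pass in 4N cells with either (-0.07 and -0.18, adjusted p = 0.612 and 0.222). Between the drugs CDKN1C was higher with cytochalasin D than with ZM447439, by 1.04 in 4N cells (limma BH-adjusted p = 0.0014) and 0.97 in 2N cells (adjusted p = 0.00315). The response of CDKN1B to ZM447439 was lower in 4N than in 2N cells (interaction -0.59, limma BH-adjusted p = 0.0471). Without drug CDKN1B was already higher in 4N than in 2N cells (0.61, limma BH-adjusted p = 0.00302). With ZM447439 its sorts did not differ past the threshold (0.02, limma BH-adjusted p = 0.934). With all libraries the other differences of these 3 genes between drugs or between sorts in their response did not pass. Without the 6 libraries CDKN1A passed for cytochalasin D against ZM447439 in 2N cells (1.01, limma BH-adjusted p = 7.96e-07) and 4N cells (-0.18, adjusted p = 0.00225). In that fit the interactions of CDKN1A for ZM447439 (1.25, limma BH-adjusted p = 8.97e-06) and CDKN1B for cytochalasin D (-0.36, adjusted p = 0.0104) also passed. PKMYT1, an inhibitory kinase of CDK1, fell by 3.06 with cytochalasin D in 4N cells (limma BH-adjusted p = 1.7e-14), CCNA2 fell by 3.87 (adjusted p = 5.7e-10) and CDK1 fell by 3.28 (adjusted p = 2.58e-08).

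Of the 19 genes that control cyclin E and CDC25A transcription, 9 passed the filter. Between untreated sorts 0 were higher and 2 lower in 4N cells (median 0.10; 12.9% and 4.55% of all genes), or 3 and 2 without the 6 libraries that stood apart (22.0% and 8.05%). E2F1, an activating E2F factor, fell by 0.81 (SE 0.07, limma BH-adjusted p = 3.43e-06), from 6.71 ± 0.501 to 3.62 ± 0.397 RPKM (SD, n = 3), and E2F6, a repressive one, by 0.19 (adjusted p = 0.00719). With either drug 0 of the 9 passed between the sorts. Without the 6 libraries 4 were higher and 0 lower with ZM447439 (20.5% and 19.8% of all genes), and 1 was higher and 1 lower with cytochalasin D (3.65% and 3.57%). With cytochalasin D 1 was higher and 7 lower in 4N cells (26.1% and 44.4% of all genes), and with ZM447439 1 and 6 (19.6% and 35.5%). In 2N cells these were 1 and 8 (27.1% and 39.5%), and 1 and 7 (23.6% and 32.5%). The medians in 4N cells were -0.81 and -0.65. E2F1 fell by 2.26 and 1.03 in 4N cells (limma BH-adjusted p = 8.6e-12 and 4.59e-08) and by 2.97 and 1.66 in 2N cells. TFDP1, the partner of E2F factors, fell by 1.17 and 0.76 in 4N cells and CCND1, cyclin D1, by 1.69 and 0.81. RBL2, for the pocket protein p130, was the gene that rose, by 0.20 and 0.11 in 4N cells (limma BH-adjusted p = 0.000321 and 0.0317). The E2F1 interaction was 0.71 for cytochalasin D (limma BH-adjusted p = 0.000874) and 0.63 for ZM447439 (adjusted p = 0.00191), of the same sign as those of the cyclins.

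Genes for targets of the kinase and for origin firing numbered 25, of which 15 passed the filter. Between untreated sorts 2 were higher and 7 lower in 4N cells (median -0.31; 12.9% and 4.55% of all genes), or 2 and 8 without the 6 libraries that stood apart (22.0% and 8.05%). CDC6, which loads the MCM helicase at origins, fell by 0.94 (limma BH-adjusted p = 2.15e-06), from 6.46 ± 0.389 to 3.12 ± 0.124 RPKM (SD, n = 3), and the helicase subunits MCM2 and MCM6 fell by 0.69 and 0.67. PLK4, which starts centriole duplication, rose by 0.83 (limma BH-adjusted p = 0.000179) and ORC6, of the origin recognition complex, by 0.39 (adjusted p = 0.00605). With ZM447439 3 were higher and 1 lower in 4N cells (5.21% and 2.45% of all genes), CDC6 by 0.37 lower and GINS4, NPM1 and MCM7 higher by 0.46, 0.34 and 0.26, and without the 6 libraries 10 were higher and 1 lower (20.5% and 19.8%). With cytochalasin D 0 passed between the sorts, and without the 6 libraries 2 were higher and 0 lower (3.65% and 3.57%). All 15 were lower with each drug in each sort; the medians in 4N cells were -2.20 with cytochalasin D and -1.10 with ZM447439, against -0.13 and -0.07 over all genes, of which 44.4% and 35.5% were lower in 4N cells and 39.5% and 32.5% in 2N cells. MCM4 fell by 2.74 with cytochalasin D in 4N cells (limma BH-adjusted p = 1.01e-12), and CDC6 fell by 3.12 in 2N cells (adjusted p = 1.12e-12). In the interactions 5 were higher and 1 lower for cytochalasin D (1.8% and 6.04% of all genes) and 8 and 1 for ZM447439 (3.52% and 6.58%), with CDC6 at 0.76 (limma BH-adjusted p = 0.00111) for cytochalasin D and MCM3 at 0.71 (adjusted p = 0.000525) for ZM447439. These counts without the 6 libraries were 9 and 2 (5.52% and 15.7% of all genes), and 11 and 2 (12.9% and 24.5%). With the replicate block the genes called over the whole table went from 998 to 2019 for the ZM447439 sorts, from 1023 to 1924 and from 1317 to 2505 for the interactions, and from 0 to 3 for the cytochalasin D sorts.

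As a measure of cell-cycle phase in each sort, 14 G2 and mitosis genes were summed per library. The sum had a median of 137 RPKM in untreated 2N cells (106 to 138) and of 344 in untreated 4N cells (335 to 350). It was 12.0 (11.7 to 20.0) and 30.6 (29.8 to 30.7) with cytochalasin D and 16.3 (14.8 to 32.9) and 70.4 (50.9 to 73.6) with ZM447439. Of the 14 genes 12 were higher and 0 lower in untreated 4N than 2N cells (12.9% and 4.55% of all genes), 13 and 0 with ZM447439 (5.21% and 2.45%), and 0 passed with cytochalasin D, where the median change was 0.71. All 14 were higher, without the 6 libraries that stood apart, in 4N cells without drug, with ZM447439 and with cytochalasin D, against 22.0%, 20.5% and 3.65% of all genes. UBE2C, a ubiquitin-conjugating enzyme of mitotic exit, rose by 2.99 without drug (limma BH-adjusted p = 4.01e-06). All 14 fell with each drug in each sort, where 44.4% and 39.5% of all genes were lower with cytochalasin D and 35.5% and 32.5% with ZM447439, in 4N and 2N cells. The share of the cyclin and CDC25A differences that goes with the mix of cell-cycle phases in a sort was not tested.

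**Figure D5:**
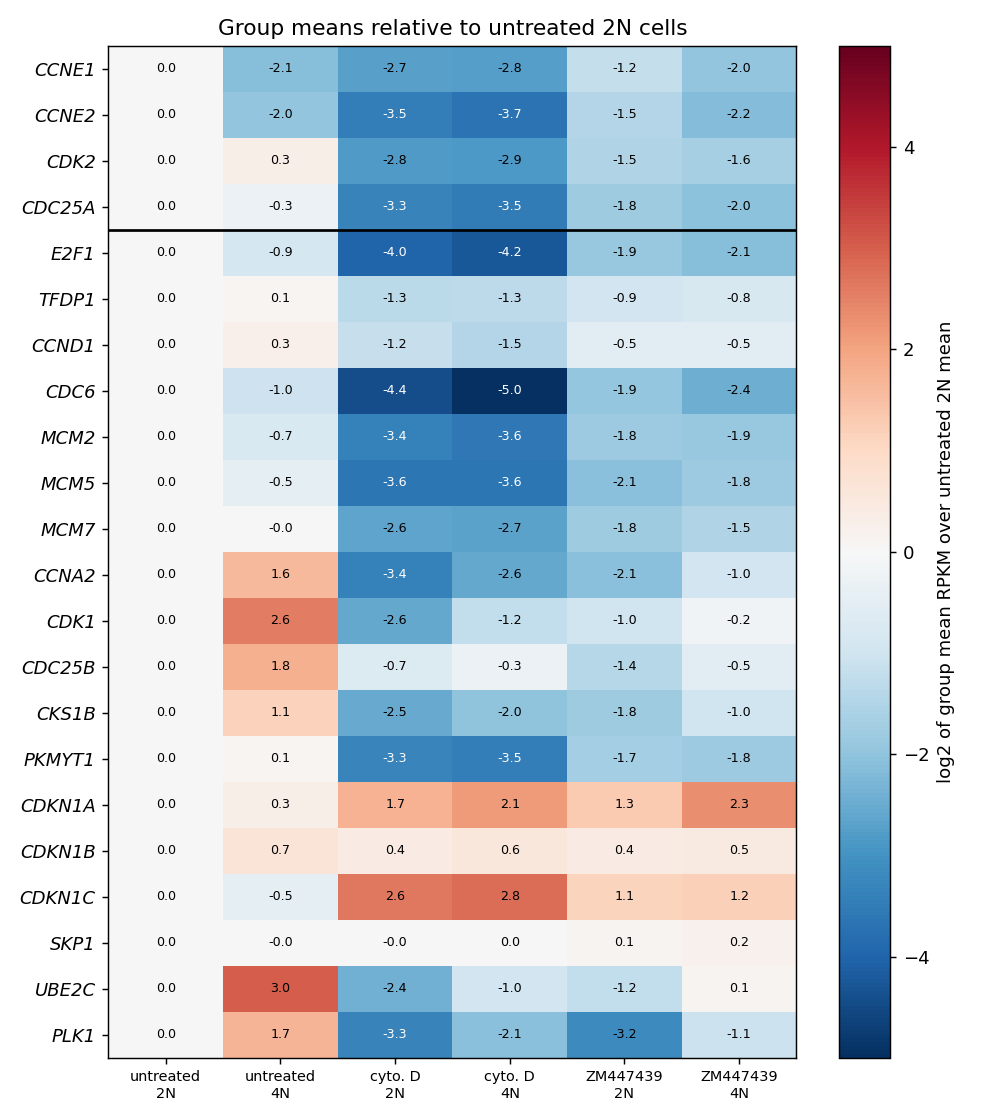
Log2 of the group mean RPKM over the untreated 2N mean, for the 4 genes (top) and named regulators, transcription factors, origin genes and mitotic genes (below), in the 6 groups. Blue is lower and red higher; CCNE1 (-2.11) and CCNE2 (-1.98) were lower in untreated 4N cells by more than E2F1 (-0.89), while CDK1 (2.56) and UBE2C (3.03) were higher.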

How the data were processed

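Polyadenylated RNA was measured in 18 libraries (6 groups of 3), with a kit that did not mark strand per the labels' protocols. The authors deposited 1 table of RPKM. Per the submitters' processing notes CASAVA 1.8.2, TopHat2, edgeR and hg19 were used. Which program counted the reads was not given in the sources used. Symbols were matched for 52338 identifiers (90.6%). With the GENCODE 29 span as length, 89.0% to 89.6% of values under 200 reads were whole within 0.05 reads, against 11.6% to 12.5% with exon length and 10% by chance. Only genes with several exon records and exons clearly shorter than the span were counted. The implied library sizes were fitted with the span as length and not refitted for exon length, so the exon figure is not an independent comparison. RPM and reads were computed from these spans and the implied library sizes.

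Genes with a mean of at least 0.5 were fitted in limma 3.58.1 (R 4.3.3) as log2(value + 0.5), with 1 mean per group, a trend, 12 residual degrees of freedom, two-sided tests, BH adjustment and a threshold of 0.05, and checked on simulated data. The fit on RPM served CCNE1 and CDC25A, which the RPKM filter left out. There were 9 pairwise comparisons and 2 interactions. Alternatives were the pseudocount (0.1), no filter, median rescaling, only the groups compared, the replicate block and each library left out. Leaving out the 6 libraries was an alternative chosen after seeing the data. It kept the 2 libraries of each group that lay close to each other, which narrows the spread and favours calls. All 135 list calls named by the rule below held under it, which is therefore not an independent check.

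Deviations of 2N and 4N libraries of 1 number and treatment correlated at 0.192 to 0.632 in all 9 pairs (other numbers -0.541 to 0.385). The block took the numbers to pair the sorts. In each treatment the library that stood apart had the same number in both sorts, which by itself gives such a pattern. Among the remaining untreated libraries r was 0.194 and 0.192 for the same number and 0.258 and 0.220 for other numbers. Whether the numbers pair the sorts is therefore not settled. Between the drugs within a sort, r for the same number was 0.231 to 0.523 in all 6 pairs (other numbers -0.446 to 0.343). Without the libraries that stood apart it was 0.231 to 0.309, and 0.243 to 0.343 for other numbers. Same-number values were not all positive between untreated libraries and those with cytochalasin D (-0.087 to 0.237) or ZM447439 (-0.206 to 0.281).

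The 4 genes and the lists were chosen with earlier results of these data known. Other genes named were up to 3 per list, comparison and direction with the largest change past the threshold, and the 5 most like each of the 4 genes; genes overlapping the 4 were named from the annotation.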

Additional observations from a re-analysis of the deposited data

Results flagged for a closer look

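In 4 results the difference between 4N and 2N cells itself differed between treatments, by the interaction term in limma. For CCNE1 the interaction was 1.93 for cytochalasin D and 1.24 for ZM447439 on the log2 RPM scale. For CCNE2 it was 1.34 and 1.01 on the log2 RPKM scale. All used the same untreated libraries, so they are not independent. No group had enough libraries for a test of single outlying values.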

How the results depend on the processing

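Over 44 results for CCNE1, CCNE2, CDK2 and CDC25A, 620 values under alternatives were computed. Of these, 603 kept their side of the threshold, 9 newly passed and 8 no longer passed. Among results that had passed, 0 reversed direction. For results that had not passed, direction was not counted, and some changed sign. CCNE1 between ZM447439 and untreated 4N cells, for example, ranged from -0.036 to 0.25 with single libraries left out. With only the groups compared, the difference between ZM447439 sorts no longer passed for CCNE1 (-0.71, limma BH-adjusted p = 0.115) or CCNE2 (-0.40, adjusted p = 0.0947), and CDK2 between untreated sorts passed (0.28, adjusted p = 0.0375). With the replicate block CDK2 passed between untreated sorts (0.28, limma BH-adjusted p = 0.0136) and in the ZM447439 interaction (-0.39, adjusted p = 0.0198); the block changed no other call of the 44, those between drugs included. Without a filter CDC25A between untreated sorts missed the threshold (-0.28, limma BH-adjusted p = 0.054), and with single libraries left out it ranged from -0.33 to -0.22. CCNE2 between ZM447439 and untreated 4N cells ranged from -0.21 to -0.019 with single libraries left out. Without the 6 libraries that stood apart, the changed calls were CCNE2 between ZM447439 and untreated 4N cells (-0.20), CDK2 between untreated sorts (0.27) and in the ZM447439 interaction (-0.34), and CDC25A between sorts without drug (-0.18), with cytochalasin D (-0.25) and with ZM447439 (-0.19). The cause of these changes was not tested.

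Genes called over the whole table moved more. Over the alternatives on RPKM, and RPM in its place, they ranged from 1606 to 4097 between untreated sorts (2272 as reported), from 0 to 941 with cytochalasin D (0) and from 0 to 5252 with ZM447439 (998). For drug against no drug the ranges were 8631 to 16881 (9191) and 6438 to 11579 (7190) in 4N cells and 8011 to 15635 (8688) and 6455 to 11487 (7304) in 2N cells. Between drugs they were 4662 to 8740 (5672) in 4N and 2532 to 7665 (4805) in 2N cells, and for the interactions 717 to 2768 (1023) and 784 to 4870 (1317). For the ZM447439 sorts, 2N library 1 raised the count to 2722 when left out, and 2N libraries 2 and 3 and 4N libraries 2 and 3 lowered it to 208, 230, 227 and 247. Over the same alternatives on RPM they ranged from 2832 to 7208 between untreated sorts (4097 as reported), from 0 to 2121 with cytochalasin D (1) and from 1 to 8398 with ZM447439 (1534), and from 1099 to 5186 (1662) and 1333 to 7934 (2261) for the interactions. With the replicate block on RPM the counts were 6642, 126 and 4381 for the sorts and 4015 and 5153 for the interactions. Without the 6 libraries they were 7208, 2121 and 8398, and 5186 and 7934. The lowest CCNE1 value rests on 95 reads.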
